A study of Bos taurus with 9 samples.

Results

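The cytosolic ribosomal protein genes encode the protein part of the ribosome that translates messenger RNA in the cytoplasm. They were measured in co-cultures of bovine endometrial stromal and epithelial cells. Members were chosen by name: every probe set (the group of array probes that reports 1 transcript) whose annotation gave 1 single symbol of the RPL, RPS or RPLP series or RPSA, without the RPS6K kinase genes, with the probe set of the highest mean standing for a gene. That gave 69 genes of the 9155 named on the array, and 98 probe sets of the 24016 tested. By symbol, 43 belonged to the RPL series and 26 to the RPS series.

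The study hybridised 9 samples to an Affymetrix bovine array, 3 each for control, LPA and LPA+IFNt. Stromal and epithelial cells from Holstein/Polish Black and White cows in days 2 to 5 of the oestrous cycle were seeded at a ratio of 3 to 1 and exposed for 6 h. Control cultures received PBS, a buffered saline. The LPA group received lysophosphatidic acid (1-oleoyl form, 1e-06 M), a signalling lipid that acts through G protein-coupled receptors, and the LPA+IFNt group received the same lipid with interferon tau (1000 antiviral units, no volume given), the type I interferon by which the ruminant embryo signals its presence to the uterus. In all groups a medium with bovine serum albumin had replaced the plating medium with calf serum. Each sample pooled material from 3 cows, and the labels give 9 cows in all, so pools must share cows and p-values measure only the spread between these pools. A culture with interferon tau alone was not analysed here, and the effect of interferon tau is seen only on top of LPA.

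Ribosomal proteins join ribosomal RNA to form a large subunit, which makes the peptide bond, and a small subunit, which reads the messenger. Their transcripts are abundant and long-lived, and most begin with a terminal oligopyrimidine (TOP) tract, through which the kinase complex mTORC1 and the RNA-binding protein LARP1 control how well they are translated; an array measures the amount of messenger RNA and not its translation. Because the levels of many of these transcripts are usually steady, several serve as reference genes for quantitative PCR. In bulk cultures of mixed cells, a change in the cell mixture and a change of RNA per cell cannot be told apart.

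Values are log2 expression levels as deposited, so a difference of 1 is a doubling. Array medians over all probe sets lay between 4.30 and 4.38. Samples carrying the same replicate number deviated together from their group means on the whole array, so results with the replicate number as a block are given where they change a call. The labelled cell types were seen in their markers, which is shown by epithelial EPCAM and KRT19 at mean levels of 14.05 and 13.59 and stromal COL1A2 and DCN at 14.08 and 14.68. All 6 endothelial and all 3 red blood cell markers measured lay under the highest value of the bacterial trp control probe sets (2.80), which is used here as the level of background.

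The members gave some of the strongest signals on the array. Their mean levels had a median of 14.58, 60 of 69 lay above the 99th percentile of all probe set means (13.53), and 56 of the 157 probe sets above 14 belonged to them. The level of 1 probe set cannot be set against that of another as an amount of RNA, since probes bind with different strength. The highest value on any array was 15.58 to 15.66, and RPL7, a large-subunit protein gene, held that highest value on all arrays but LPA replicate 1 and LPA+IFNt replicate 3, with 15.58, 15.58 and 15.63 in control, 15.49, 15.59 and 15.60 with LPA and 15.58, 15.61 and 15.44 with LPA+IFNt. A probe set at the top of the scale may understate a difference. Whether this lessened the members' differences was not tested. Of the 101 other probe sets above 14, 5 passed in LPA+IFNt against control and 7 in LPA+IFNt against LPA. Of all probe sets, 5.34 and 6.54 percent did. Among those above 14 were B2M, the light chain of MHC class I (mean level 14.60, log2 fold change 0.71 against control, SE 0.12), and the collagen gene COL3A1 (14.56, -0.51, SE 0.054). These stand at the ends of the range. Over the 101, log2 fold changes in LPA+IFNt against control ran from -0.51 to 0.71, with a median of -0.025.

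Dim members were few. RPL3L, a paralogue of RPL3 known from muscle, stood at 1.93 to 2.02 on all 9 arrays, under the background level. The probe set of RPS19, a small-subunit protein gene, read 2.74 to 2.96 and that of RPL37, a large-subunit protein gene, read 3.01 to 3.74, so neither gives a usable level. The other 66 members had means above 10.

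Replicates of the members were tight. The standard deviation within groups had a median of 0.060 over the members and 0.082 over all probe sets tested, and 0.061 over the 101 other probe sets above 14. The 95% interval of a difference between groups reached a median of 0.11 to each side for the members. With 3 arrays a group, their number limits the precision.

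Over the 3 groups 1 member was called by limma's moderated F test with Benjamini-Hochberg adjustment over all probe sets, against 5.99 percent of all probe sets tested. That member was RPS9, which encodes a small-subunit protein that contacts the ribosomal RNA and helps set the accuracy of decoding. RPS9 read 13.66, 13.53 and 13.61 in control replicates 1 to 3, 13.09, 13.13 and 12.94 with LPA, and 13.65, 13.49 and 13.45 with LPA+IFNt. All 3 LPA arrays lay below the other 6, while control and LPA+IFNt overlapped. RPS9 rose by 0.48 from LPA to LPA+IFNt (SE 0.069, 95% interval 0.32 to 0.64, adjusted p = 0.00677), a level 139 percent of that with LPA alone, and the F test gave adjusted p = 0.006. The rise stood in each replicate number, at 0.56, 0.37 and 0.51. Against control, LPA had a log2 fold change of -0.55 (SE 0.069, 95% interval -0.71 to -0.38), with -0.57, -0.40 and -0.67 in the 3 replicate numbers, and it missed the threshold with adjusted p = 0.0566. It passed without LPA replicate 2 (adjusted p = 0.039) and with probe sets under background left out (0.0414), and stood at 0.0675 with the replicate block. LPA+IFNt against control stood at -0.07 (SE 0.069, adjusted p = 0.616).

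RPS9 has 1 probe set on the array, so no second one was at hand for comparison. Of all probe sets tested, 1.22 percent had their 3 LPA arrays below all 6 others, and 2.53 percent had them above; of the members 1 and 0 did. Taken on the probe set standing for each gene, the next largest difference of any member in any comparison was 0.33. That was the dim RPL37 in LPA+IFNt against control. Further probe sets of some members differed by more. A second probe set of RPL24 (mean level 9.42) stood at -0.65 in LPA+IFNt against control (SE 0.28, adjusted p = 0.293). Against LPA it stood at -0.81 (adjusted p = 0.168). Neither passed, and this probe set was chosen after its values were seen. The other 23 small-subunit members had log2 fold changes of -0.02 to 0.06 in LPA against control.

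Other measures of the LPA arrays are given beside the RPS9 result. The summed level of 8 leukocyte markers was 7.89 to 8.07 in control, 8.08 to 8.47 with LPA and 7.72 to 7.95 with LPA+IFNt on the log2 scale, with 0 of 8 called in LPA against control and 1 (CD53, higher) in each comparison with LPA+IFNt, where with the replicate block CD14 passed as lower as well, and 3 of them (CD3E, CSF1R and ITGB2) under background. The summed level of 5 smooth muscle and pericyte markers was 8.59 to 8.90, 8.95 to 9.19 and 8.54 to 8.70 in the same order. None was called in any comparison without the replicate block (2 lower from LPA to LPA+IFNt with it), and MYH11 and RGS5 lay under background. Of all probe sets, 5.34 and 6.54 percent passed in LPA+IFNt against control and against LPA, or 8.68 and 9.66 percent with the block. The log2 difference between the 3' and the 5' GAPDH control probe sets, a sign of RNA length, was 0.22 to 0.55 in control, 0.020 to 0.23 with LPA and 0.13 to 0.38 with LPA+IFNt; control replicate 1 (0.55) and LPA replicate 3 (0.020) set those extremes, and the other control and LPA arrays lay at 0.22 to 0.24. The same difference for actin was 3.00 to 3.06, 2.99 to 3.04 and 2.99 to 3.08. The part of these in the RPS9 result was not tested.

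**Figure D1:**
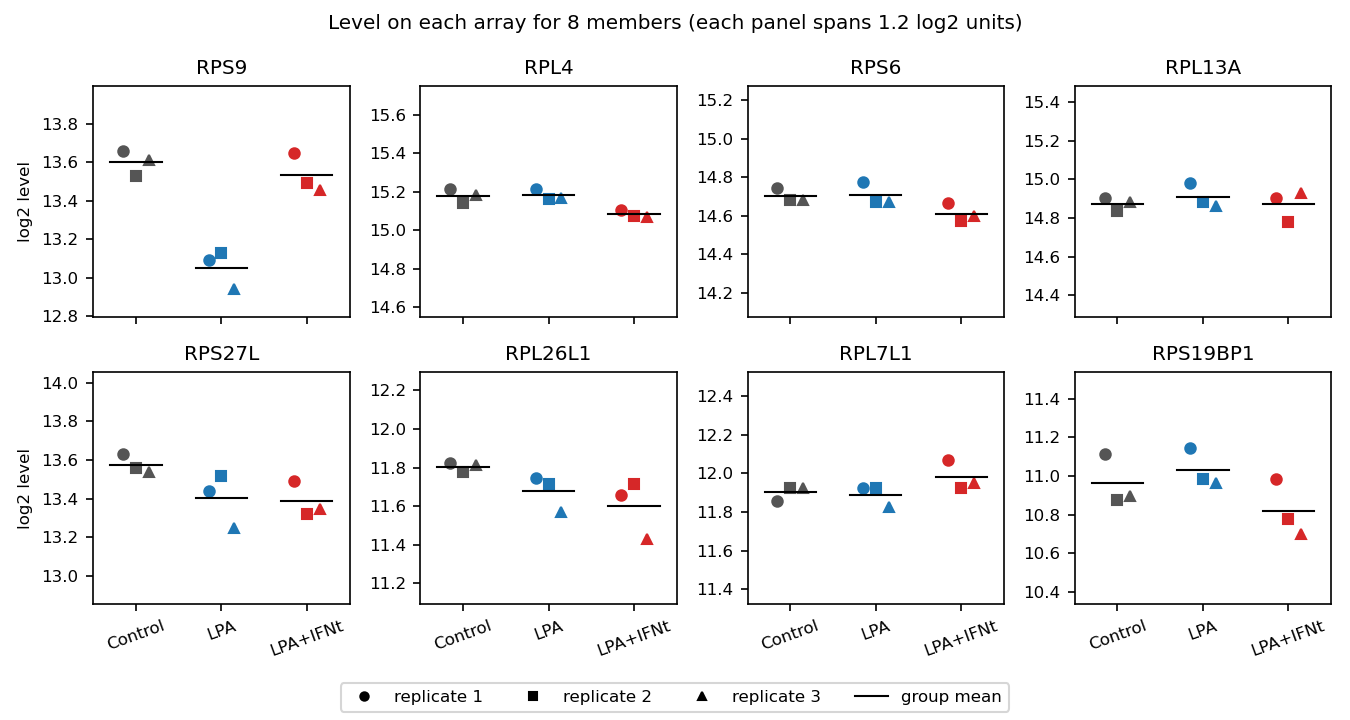
Log2 level (vertical axis) of 8 members on each of the 9 arrays, with symbols for replicate numbers and lines at the group means; each panel spans the same height. RPS9 with LPA lies at 12.94 to 13.13, below all control and LPA+IFNt arrays, while the groups of RPL13A overlap.

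In LPA against control, 0 of the 69 members passed, against 0.0708 percent of all probe sets tested (limma, adjusted p), and 1 member, RPS9, had an unadjusted p under 0.05, against 8.3 percent. With the replicate block, 0 members and 0.0458 percent of all probe sets passed. The members were evenly split, with 33 lower (47.6 percent of all probe sets were) and 36 higher, and a median log2 fold change of 0.0019, beside 0.0023 over all probe sets. Apart from RPS9, differences ran from -0.17 for RPS27L to 0.11 for RPL8. The 95% interval lay within 0.25 to either side of no change for 63 members. It did so for 13903 of all 24016 probe sets and for 85 of the 101 other probe sets above 14. The 3 arrays of one group lay below those of the other for 6 members with LPA (RPL26L1, RPL31, RPL32, RPL39, RPS27L and RPS9; 4.91 percent of all probe sets) and above for 1 (RPL8; 5.13 percent). The split rested on single arrays: without LPA replicate 1, 52 of 69 members were lower. By replicate number, 29, 21 and 64 members were lower in LPA than in the control of the same number, with no share over all probe sets counted.

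In LPA+IFNt against control, again 0 of 69 members passed, against 5.34 percent of all probe sets tested (limma, adjusted p). An unadjusted p under 0.05 was reached by 8, all lower. Of all probe sets, 10.6 percent were lower at that p and 16.7 percent passed it in either direction. With the replicate block, 14 members were lower at an unadjusted p under 0.05. No share over all probe sets is given for that rule, so this count cannot be set against the array. Small negative differences were common: 62 of 69 members (89.9 percent) were below 0, beside 40.7 percent of all probe sets, with a median of -0.05 beside 0.018, but with arrays centred on spike-in controls, which moves all probe sets by 0.11, the members' median was 0.06 and 8 were below 0. Since this centring moves all probe sets of an array alike, the members' distance from the median of all probe sets was the same under it. The 101 other probe sets above 14 had a median of -0.025, and 63.4 percent of them were below 0. The pooled standard deviation between replicates of the members' median on an array was 0.061 with no regard to replicate number. Taken within replicate numbers 1 to 3, the median over members of the difference was -0.012, -0.07 and -0.07, below 0 in all 3. The groups did not overlap for 13 members, all lower (12.8 percent of all probe sets), and for 0 higher (10.2 percent). By replicate number 42, 60 and 61 members were lower, and 39 were lower in all 3. These counts were made for the members alone, so they cannot be set against a share over all probe sets. The 95% interval lay within 0.25 of no change for 60 members, for 12684 of all 24016 probe sets and for 82 of the 101 other probe sets above 14.

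In LPA+IFNt against LPA, 1 of 69 members passed, RPS9, against 6.54 percent of all probe sets tested. An unadjusted p under 0.05 was reached by 4 (RPL13, RPL4 and RPS7 lower, RPS9 higher), against 17.5 percent. With the replicate block, 11 members were lower at that unadjusted p, again with no share over all probe sets given. Of the members 58 were below 0 (84.1 percent, beside 38.5 percent of all probe sets), with a median of -0.05 beside 0.019, and with spike-in centring, which moves all probe sets by 0.13, the median was 0.08 and 4 were below 0. By replicate number 49, 59 and 35 were lower, and 26 were lower in all 3, so the pair numbered 3 was close to an even split. Here too the counts by replicate number lack a share over all probe sets. The groups did not overlap for 4 lower members, RPL35A, RPL4, RPS4Y1 and RPS6 (11.3 percent of all probe sets), and for 1 higher, RPS9 (7.35 percent). The 3 comparisons share arrays with each other and are not independent.

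**Figure D2:**
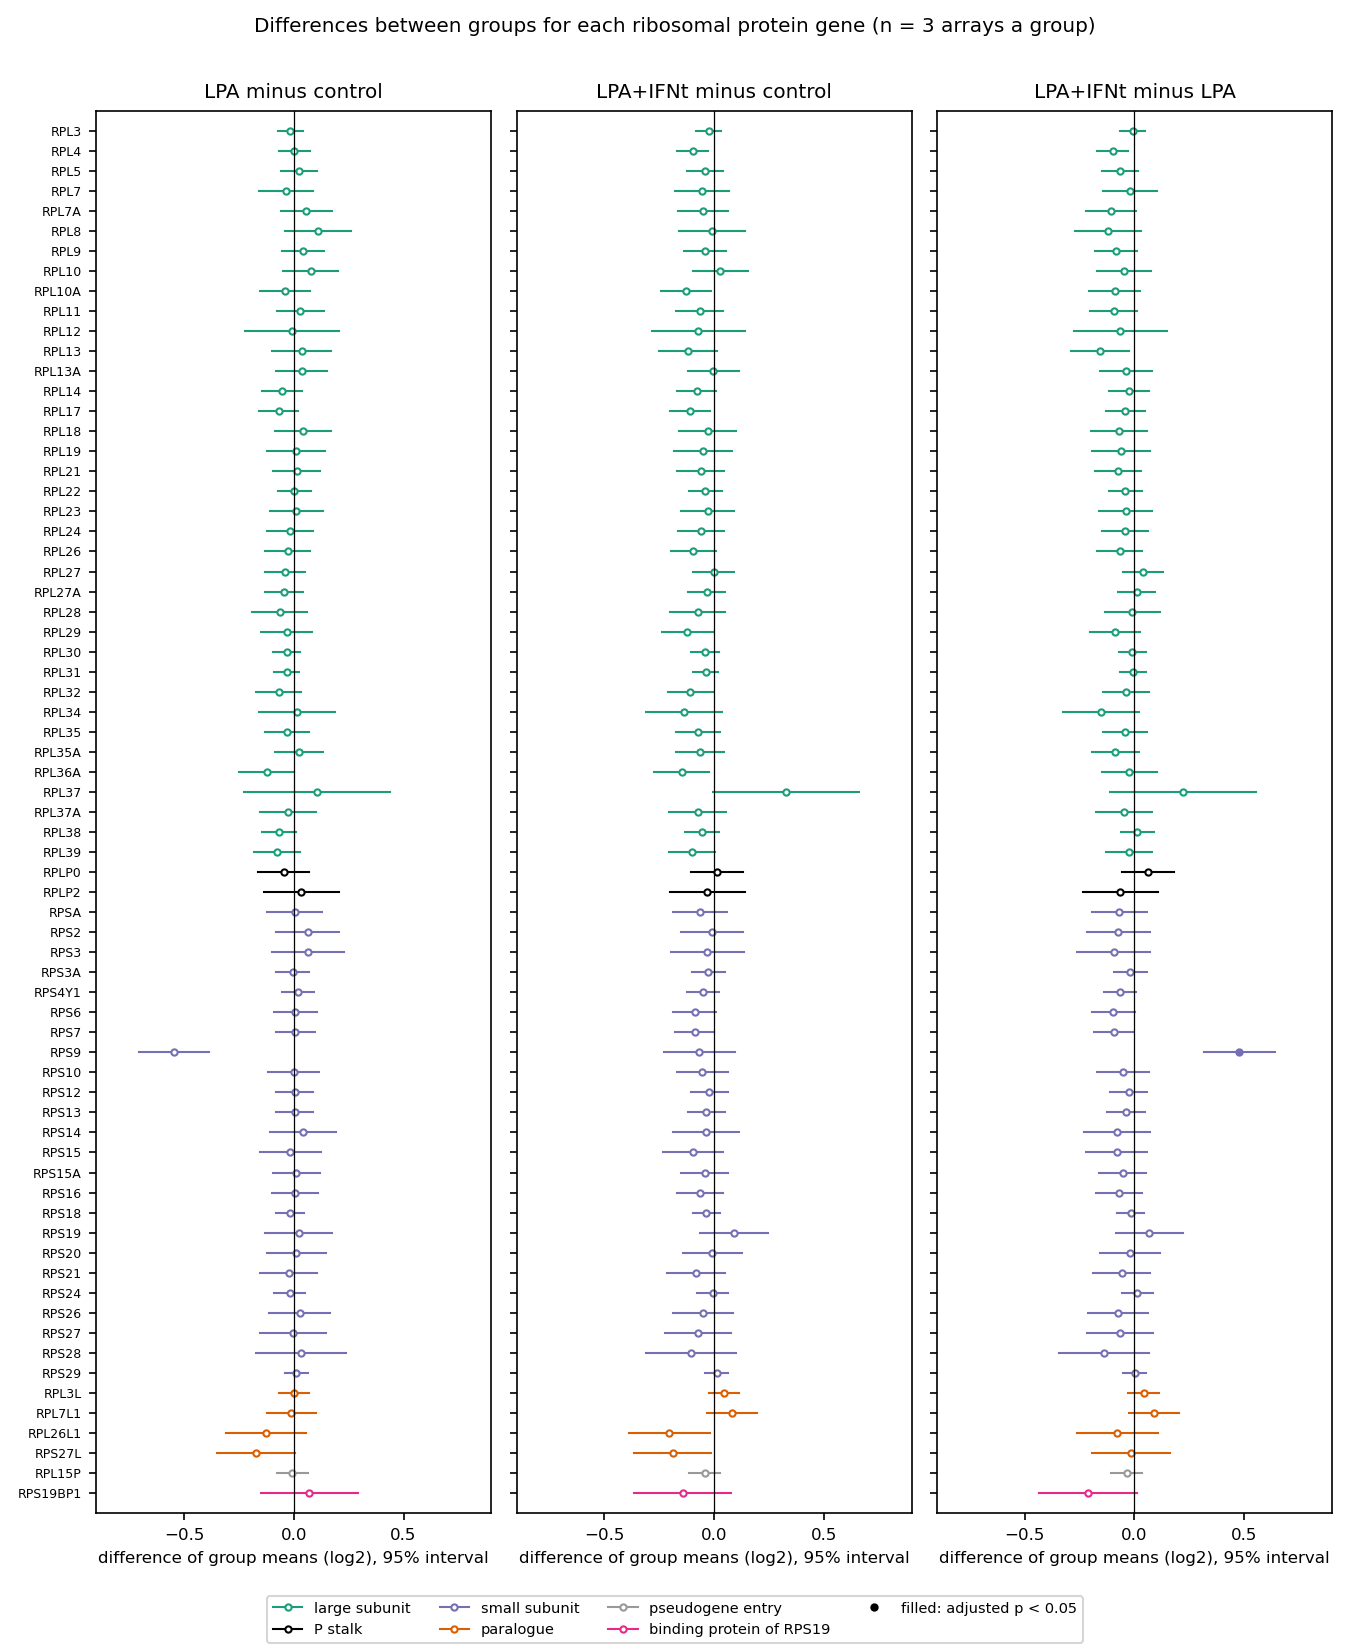
Difference of group means on the log2 scale (horizontal axis) with its 95% interval for each of the 69 members (rows, coloured by role) in the 3 comparisons, n = 3 arrays a group; filled points passed the threshold. RPS9 stands at -0.55 with LPA and 0.48 from LPA to LPA+IFNt. In LPA+IFNt against control most points lie slightly left of 0, but only 8 of the 69 intervals exclude 0.

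On single arrays the members' median level was 14.63, 14.55 and 14.62 in control replicates 1 to 3, 14.67, 14.59 and 14.55 with LPA, and 14.62, 14.48 and 14.60 with LPA+IFNt. The groups overlapped in this median, and LPA+IFNt replicate 2 was lowest and LPA replicate 1 highest.

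**Figure D3:**
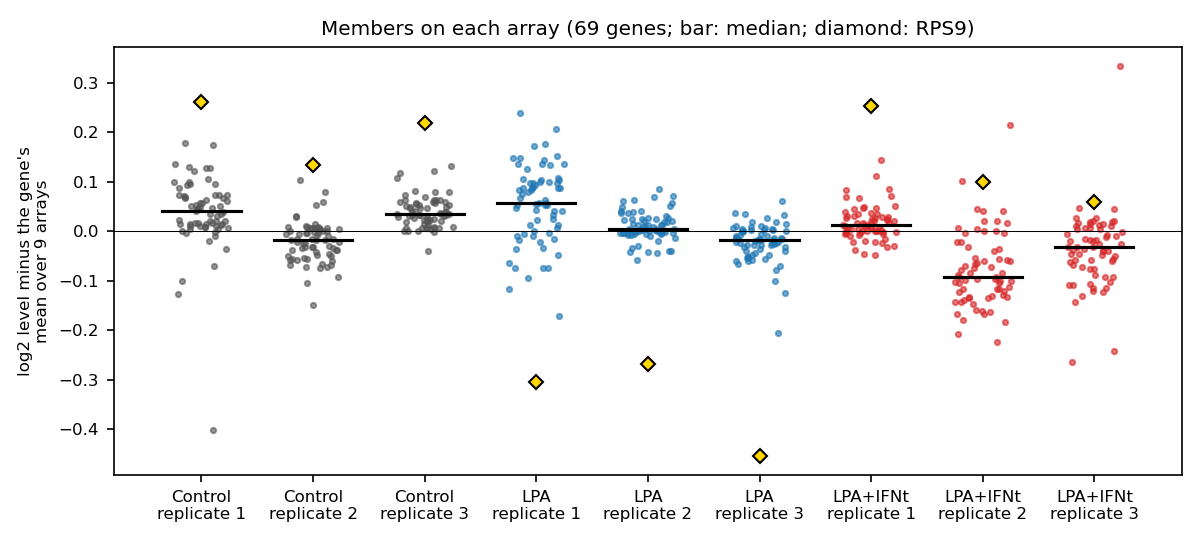
Level of each member minus its own mean over the 9 arrays (vertical axis, log2) on each array, with the median of the 69 genes as a bar and RPS9 as a diamond. The medians of the 3 groups overlap, and RPS9 lies far below the other members on the 3 LPA arrays.

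Among the 37 members of the large subunit, 35 were below 0 in LPA+IFNt against control (median -0.06) and 20 in LPA against control (median -0.016), and none passed in any comparison. RPL4, which lines the tunnel through which the new peptide leaves, had the smallest p of the members after RPS9: it read 15.21, 15.14 and 15.18 in control, 15.22, 15.16 and 15.17 with LPA and 15.10, 15.07 and 15.07 with LPA+IFNt. The LPA+IFNt arrays lay below all others, by -0.10 against control (SE 0.030, adjusted p = 0.135) and -0.10 against LPA (adjusted p = 0.119), and neither passed. RPL36A, a small protein near the exit site of transfer RNA, read 14.53, 14.42 and 14.50 in control, 14.32, 14.44 and 14.33 with LPA and 14.35, 14.41 and 14.25 with LPA+IFNt. RPL17, a protein at the end of the peptide tunnel, read 14.95, 14.91 and 14.95, then 14.80, 14.91 and 14.89, then 14.87, 14.82 and 14.79 in the same order. Both had their control arrays above all LPA+IFNt arrays, with differences of -0.15 (adjusted p = 0.208) and -0.11 (adjusted p = 0.189).

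RPL13 read 14.43, 14.33 and 14.40 in control, 14.51, 14.40 and 14.36 with LPA and 14.36, 14.20 and 14.24 with LPA+IFNt. The groups overlapped by a small margin, and the difference of -0.16 from LPA to LPA+IFNt (SE 0.057, adjusted p = 0.201) passed with the replicate block (adjusted p = 0.0425). With that block RPL29, which read 14.34, 14.25 and 14.29 in control, 14.34, 14.20 and 14.25 with LPA and 14.25, 14.15 and 14.13 with LPA+IFNt, passed against control as well (-0.12, adjusted p = 0.0488, or 0.266 without the block). The block thus gave 1 member in LPA+IFNt against control, where 8.68 percent of all probe sets passed, and 3 in LPA+IFNt against LPA, where 9.66 percent did. RPL29 was chosen after its values were seen.

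RPL5 and RPL11 bind 5S ribosomal RNA and, when ribosome assembly fails, hold back MDM2, the brake on p53. RPL5 read 14.70, 14.71 and 14.76 in control, 14.80, 14.71 and 14.72 with LPA and 14.71, 14.66 and 14.67 with LPA+IFNt. RPL11 read 14.86, 14.83 and 14.91, then 14.95, 14.87 and 14.86, then 14.87, 14.72 and 14.80. Groups overlapped for both genes, and no difference exceeded 0.10 in size. Of the p53 checkpoint genes, MDM2 (mean level 3.01, close to background; log2 fold change 0.06 in LPA+IFNt against control, adjusted p = 0.627) and the cell cycle inhibitor CDKN1A (-0.10, adjusted p = 0.604) were measured and none passed in any comparison.

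RPL13A, which after interferon gamma can leave the ribosome and join the GAIT complex that blocks selected messengers, read 14.90, 14.84 and 14.89 in control, 14.98, 14.89 and 14.86 with LPA and 14.90, 14.78 and 14.93 with LPA+IFNt. Its 95% interval in LPA+IFNt against control was -0.12 to 0.11. Of its GAIT partners 4 were measured and none passed: EPRS1 stood at -0.13 (adjusted p = 0.304) and GAPDH at -0.07 (0.566) in that comparison, and 1 of the 4 lay under background. GAPDH passed as lower from LPA to LPA+IFNt with the replicate block (-0.17, adjusted p = 0.0423, or 0.143 without it).

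RPL3, whose protein lies near the site of peptide bond formation, read 14.92, 14.91 and 14.95 in control, 14.90, 14.91 and 14.91 with LPA and 14.91, 14.87 and 14.92 with LPA+IFNt. RPL19, a common reference gene, read 13.61, 13.56 and 13.65, then 13.68, 13.60 and 13.58, then 13.67, 13.45 and 13.56. RPL22, which can also bind viral RNA, read 14.70, 14.62 and 14.68, then 14.67, 14.70 and 14.64, then 14.62, 14.66 and 14.60. The groups overlapped for these 3 genes. RPL26, which binds p53 messenger RNA, read 14.75, 14.68 and 14.72, then 14.73, 14.69 and 14.64, then 14.69, 14.54 and 14.63, with -0.10 in LPA+IFNt against control (adjusted p = 0.338).

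The P stalk recruits translation factors to the large subunit, and RPLP0 and RPLP2 were measured. RPLP0, its base and a common reference gene, read 14.59, 14.52 and 14.60 in control, 14.46, 14.62 and 14.49 with LPA and 14.64, 14.58 and 14.53 with LPA+IFNt. RPLP2 read 14.64, 14.54 and 14.60, then 14.77, 14.59 and 14.52, then 14.63, 14.46 and 14.60. The groups overlapped for both, and their 95% intervals lay within 0.25 of no change in all 3 comparisons. A second bright probe set of RPLP0 (mean level 14.41) had log2 fold changes of 0.04, -0.02 and -0.06 in the 3 comparisons, beside -0.05, 0.01 and 0.06 for the first.

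Among the 24 members of the small subunit, 22 were below 0 in LPA+IFNt against control (median -0.05) and 8 in LPA against control (median 0.0054). RPS6, the protein that S6 kinases phosphorylate when mTORC1 is active, read 14.74, 14.68 and 14.68 in control, 14.78, 14.67 and 14.67 with LPA and 14.67, 14.57 and 14.60 with LPA+IFNt. Its 3 LPA+IFNt arrays lay below the other 6 by a small margin, with -0.09 against control (SE 0.042, adjusted p = 0.343) and -0.10 against LPA (adjusted p = 0.293). RPS7, which like RPL5 and RPL11 can bind MDM2, read 13.86, 13.85 and 13.90 in control, 13.89, 13.84 and 13.90 with LPA and 13.85, 13.76 and 13.74 with LPA+IFNt, with -0.10 from LPA to LPA+IFNt (adjusted p = 0.243).

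RPSA, which serves both the small subunit and, at the cell surface, as a laminin receptor, read 14.33, 14.21 and 14.32 in control, 14.37, 14.26 and 14.24 with LPA and 14.29, 14.15 and 14.23 with LPA+IFNt. RPS18, a protein of the subunit's head and a common reference gene, read 15.03, 15.02 and 15.05, then 15.01, 15.02 and 15.02, then 15.02, 15.01 and 14.96. RPS27 read 14.69, 14.53 and 14.61, then 14.68, 14.58 and 14.55, then 14.59, 14.42 and 14.59. Groups overlapped for these 3 genes, and none passed in any comparison. The member annotated RPS4Y1, for which RefSeq gives the synonym RPS4, had -0.05 in LPA+IFNt against control (adjusted p = 0.484).

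Paralogues, which can replace or resemble a standard ribosomal protein, were measured for 4 genes, and none passed. RPS27L, a paralogue of RPS27 whose gene p53 can activate, read 13.63, 13.56 and 13.54 in control, 13.44, 13.52 and 13.25 with LPA and 13.49, 13.32 and 13.35 with LPA+IFNt. All 6 treated arrays lay below the 3 controls, with -0.17 for LPA (SE 0.076, adjusted p = 0.614) and -0.19 for LPA+IFNt (adjusted p = 0.259), beside -0.0047 and -0.07 for RPS27. The second, dimmer probe set of RPS27L read 5.04, 5.09 and 5.02, then 4.36, 4.66 and 4.47, then 4.30, 4.79 and 4.35 in the same order. Its LPA+IFNt arrays were lower by a log2 fold change of -0.57 (SE 0.13, adjusted p = 0.0549), which passed with the replicate block (adjusted p = 0.0186), and its LPA value of -0.55 did not pass (0.243, or 0.104 with the block). With both probe sets averaged, RPS27L passed in LPA+IFNt against control (-0.38, adjusted p = 0.0224).

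RPL26L1, a paralogue of RPL26, read 11.82, 11.77 and 11.82 in control, 11.75, 11.72 and 11.57 with LPA and 11.66, 11.72 and 11.43 with LPA+IFNt. As with RPS27L, all treated arrays lay below the controls, with -0.13 for LPA (adjusted p = 0.798) and -0.20 for LPA+IFNt (SE 0.079, adjusted p = 0.24). RPL7L1, a relative of RPL7 that works in assembly of the large subunit, read 11.86, 11.93 and 11.93, then 11.93, 11.92 and 11.82, then 12.07, 11.93 and 11.95. Its groups overlapped, with 0.08 in LPA+IFNt against control (adjusted p = 0.471). RPLP1, RPL22L1 and RPL36AL were not analysed here.

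Entries that match by name need not encode a ribosomal protein. RPS19BP1 encodes a protein that binds RPS19 and the deacetylase SIRT1, and read 11.11, 10.88 and 10.90 in control, 11.14, 10.99 and 10.96 with LPA and 10.98, 10.78 and 10.70 with LPA+IFNt. From LPA to LPA+IFNt it had -0.21 (SE 0.095, adjusted p = 0.31), or adjusted p = 0.0165 with the replicate block, and in the F test with that block, where 9.48 percent of all probe sets passed, it stood at 0.0303. RPL15P is listed by RefSeq as a pseudogene, and its brightest probe set read 14.69 to 14.79 on all arrays (-0.04 in LPA+IFNt against control, adjusted p = 0.517). RPS19BP1 was chosen after its values were seen.

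Of the 29 further probe sets of the members, 2 passed the F test, a share of 6.9 percent beside 5.99 percent of all probe sets. A probe set of RPL9 that was dimmer than its brightest one, but above background, passed. It read 8.01, 7.95 and 7.86 in control, 7.97, 7.97 and 7.84 with LPA and 7.34, 7.34 and 7.35 with LPA+IFNt. It fell by 0.60 against control (SE 0.049, adjusted p = 0.000381) and by 0.58 against LPA (adjusted p = 0.000439). The LPA+IFNt arrays lay far below the other 6. The brightest probe set of RPL9, at a mean of 14.77, stood at -0.04 against control (adjusted p = 0.605) and -0.08 against LPA (0.376), and another one lay under background. A second probe set of RPL15P read 12.89, 12.89 and 12.90, then 12.88, 12.79 and 12.90, then 12.71, 12.66 and 12.68, and fell by 0.21 against control (adjusted p = 0.0113) and by 0.17 against LPA (0.0248). Probe sets of 1 gene symbol thus differed, and near-identical copies of these genes mean that a probe set may report more than 1 of them. Both probe sets were chosen after their values were seen.

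Genes around the ribosome were read from lists. Of 17 measured genes with TOP messengers outside the family, mostly elongation and initiation factors, 0 were higher and 1 lower from LPA to LPA+IFNt (limma, adjusted p). In either other comparison 0 passed. Of all probe sets 6.54 percent passed from LPA to LPA+IFNt. With the replicate block 1 was lower in LPA+IFNt against control and 3 against LPA, where 8.68 and 9.66 percent of all probe sets passed. The list's medians were 0.0044 for LPA and -0.07 for LPA+IFNt against control. The 1 that fell was NAP1L1, a histone chaperone, at 13.28, 13.31 and 13.31 in control, 13.45, 13.47 and 13.40 with LPA and 13.23, 13.21 and 13.09 with LPA+IFNt (-0.26 from LPA, adjusted p = 0.0125). The LPA arrays were high and the LPA+IFNt arrays low. FAU, whose product is cut into a small-subunit protein and a ubiquitin-like protein, stood at 0.08, -0.05 and -0.12 in the 3 comparisons (adjusted p = 0.739, 0.581 and 0.166).

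Of 17 measured genes around mTORC1, LARP proteins and S6 kinases, 2 were higher and 0 lower in LPA+IFNt against control and likewise against LPA. Of all probe sets, 5.34 and 6.54 percent passed there in either direction, and 0 of the 17 passed with LPA alone. MTOR, LARP1, TSC2, EIF4EBP2, RPS6KA2 and RPS6KA6 were listed but not analysed here, and 2 of the 17 lay under background. The list's median stood at -0.11 against control, opposite in sign to the called genes, and at 0.0013 against LPA. RHEB, the small GTPase that switches on mTORC1, read 12.39, 12.37 and 12.45 in control, 12.42, 12.40 and 12.47 with LPA and 12.63, 12.66 and 12.61 with LPA+IFNt, a rise of 0.23 against control (SE 0.033, adjusted p = 0.00692). EIF4E, the cap-binding protein of translation initiation, read 12.53, 12.76 and 12.76, then 12.62, 12.76 and 12.57, then 13.01, 13.09 and 12.99, a rise of 0.35 (SE 0.075, adjusted p = 0.0384). In both, all LPA+IFNt arrays lay above all others. The ribosomal S6 kinase gene RPS6KA3 stood at 0.34 (adjusted p = 0.147) and passed with the replicate block (0.0445), a gene chosen after its values were seen. Of the 5 measured chaperones of ribosomal proteins none passed in any comparison, with GRWD1 at -0.27 (adjusted p = 0.783) and AAMP at -0.16 (0.799) in LPA against control.

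Quantitative PCR reference genes outside the family were listed as well. Of 9 measured, 1 was higher in LPA+IFNt against control, B2M, and 1 higher (B2M) and 1 lower (YWHAZ) in LPA+IFNt against LPA. Of all probe sets, 5.34 and 6.54 percent passed there. With the replicate block 2 were lower against LPA, which adds GAPDH, beside 9.66 percent of all probe sets passing. YWHAZ, a 14-3-3 protein gene, read 11.11, 11.22 and 11.34 in control, 11.65, 11.71 and 11.73 with LPA and 11.34, 11.28 and 11.20 with LPA+IFNt. Its LPA arrays lay above all others, with 0.47 for LPA against control (SE 0.064, adjusted p = 0.064) and -0.42 from LPA to LPA+IFNt (adjusted p = 0.00853), the opposite direction from RPS9. Of the reference genes within the family, RPLP0, RPL13A, RPL19, RPS18 and RPL4 had 95% intervals within 0.25 of no change in all comparisons, and RPS9 did not.

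Some stromal markers were lower with LPA+IFNt. Of 10 measured, 3 passed as lower against control (COL1A1, COL3A1 and FBN1), where 5.34 percent of all probe sets passed, and 5 against LPA, where 6.54 percent did, or 4 with the replicate block, which drops COL1A2. None passed as higher, and their summed level was 16.60 to 16.73 in control, 16.67 to 16.79 with LPA and 16.44 to 16.46 with LPA+IFNt. Of 10 epithelial markers 1 was higher against control and 1 lower against LPA (with the replicate block 2 were higher in each, MUC1 among them), with summed levels of 15.55 to 15.64, 15.57 to 15.61 and 15.58 to 15.64. No marker of either list lay under background. The part of these in the small negative differences of the members was not tested.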

How the data were processed

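The deposited log2 values of 24128 probe sets on 9 arrays were used, deposited by the authors; the submitters' processing notes name Partek and RMA, with no version, genome build or settings. Base 2 is an inference from RMA's usual scale and from values that end below 16. RMA as usually run equalises the arrays' distributions, which would hide a shift shared by most transcripts. Tests left out 112 control probe sets.

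Symbols are those of the platform table, checked against RefSeq (ARS-UCD2.0) through gene identifiers, where all 69 members matched. limma 3.58.1 in R 4.3.3 (lmFit, eBayes, two-sided, no covariate) was run on all 24016 probe sets and 9 arrays, with Benjamini-Hochberg adjustment within each comparison and a threshold of 0.05, after the code was tested on simulated data. That equal replicate numbers pair the samples is an inference from the values. All 9 pairs of equal number had correlated deviations (r of 0.19 to 0.49 over all probe sets, 0.037 to 0.71 over the members). Standard errors, intervals and p-values are from the fit without this pairing unless the replicate block is named. Given by array were members called, the 6 members with the smallest F test p and a list of well-known members. Members and lists were chosen with earlier results of these data known, so no p is given for a list or a score over members. Intervals are 95% and unadjusted.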

Additional observations from a re-analysis of the deposited data

How the results depend on the processing

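The call of RPS9 in LPA+IFNt against LPA held in all 18 alternatives, at 0.42 to 0.61 (adjusted p 0.00145 to 0.0369). Its value in LPA against control lay at -0.58 to -0.49, with adjusted p of 0.00963 to 0.209, and with each array left out 0.039 to 0.18; LPA+IFNt against control turned to 0.043 with spike-in centring. The count of members called in LPA against control was 1 (RPS9) without LPA replicate 2, with dim probe sets removed, with array quality weights, with probe sets of a gene averaged and with trend and robust moderation, where 0.704, 0.246, 1.87, 0.141 and 0.208 percent of all features passed, and 0 to 1 with each array left out. In LPA+IFNt against control it was 1 with the replicate block (RPL29; 8.68 percent of all features), 3 with array weights (RPL17, RPL26L1 and the dim RPL37; 19.8 percent, with control replicate 2 weighted 7.28), 2 with averaging (RPL9 and RPS27L; 5.85 percent) and 1 with probe sets without _s_, _x_ or _a_ in their names (RPL9; 5.34 percent). In LPA+IFNt against LPA it was 3 with the block, 2 with averaging and 2 with the last choice (9.66, 7.06 and 6.54 percent of all features), and for the F test 2, 3 and 2 (9.48, 6.66 and 5.99 percent). The block changed no other call of a member. The members' median in LPA+IFNt was 0.059 against control and 0.083 against LPA with spike-in centring; other settings gave -0.07 to -0.014 and -0.08 to -0.02. Members below 0 numbered 50, 8 and 4 in the 3 comparisons with spike-in centring, and 25 to 52 (52 without LPA replicate 1), 46 to 63 and 49 to 59 with each array left out. Limiting the members to those above 10, chosen after seeing the data, moved no median beyond the spread between replicates. Signals near background limit what can be seen for RPL37, RPS19 and RPL3L. Signals at the top of the scale limit it for RPL7. They may also do so for others of the 55 members with means above 14, which was not tested.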
